A study of Mus musculus with 24 samples.

Results

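A set of 8 genes that mark the projection neurons of the striatum, *Drd1*, *Drd2*, *Adora2a*, *Ppp1r1b*, *Rgs9*, *Pde10a*, *Adcy5* and *Rasd2*, were followed across 24 brain samples. These 8 members were found by symbol among 36333 genes listed, and all 8 were among the 17267 genes expressed highly enough to be tested. RNA was sequenced from 24 male mice (strain C57BL6N in the sample labels) aged 12 to 16 weeks, with 1 library per mouse, at 5 dpi (days post injury). Traumatic brain injury (TBI) was induced by controlled cortical impact (CCI) in 20 mice. Of these, 5 received vehicle, 5 received PLX3397, an inhibitor of the receptor CSF1R on which microglia depend, 5 received Anakinra, a blocker of the interleukin-1 receptor IL1R1, and 5 received PLX3397+Anakinra. PLX3397 was given at 290 mg/kg in food from 90 min after CCI to 5 dpi, and Anakinra was injected subcutaneously at 100 mg/kg at 5 min, 24, 48 and 72 h. The remaining 4 mice were sham-operated. Per the methods this meant anesthesia and a skin incision but neither craniotomy nor impact, so that surgery and injury are compared together. Expression is given in TPM (transcripts scaled by gene length to a sum of 1000000 in each library). Neither read counts nor library totals were among the values used here, so the depth is unknown and precision rests on the spread between mice. Between 22160 and 23249 genes were above 0 in each library, and no pair of libraries held identical values. Every vehicle mouse, and no other mouse, carries the letter B in its number, so whatever the letter marks cannot be told apart from vehicle treatment.

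The striatum is the input station of the basal ganglia, and nearly all of its neurons are GABAergic projection neurons. They form a pair of populations, one with the dopamine D1 receptor and one with the dopamine D2 receptor and an adenosine receptor, the product of *Adora2a*. The D1 and adenosine receptors stimulate the synthesis of cAMP through the G protein Golf, and D2 receptors inhibit it. The member genes encode these receptors (*Drd1*, *Drd2*, *Adora2a*), the main adenylyl cyclase of the striatum (*Adcy5*), a phosphodiesterase that degrades cAMP and cGMP (*Pde10a*), the phosphatase inhibitor DARPP-32, a target of protein kinase A (*Ppp1r1b*), a regulator that shortens G protein signals (*Rgs9*), and the small GTP-binding protein Rhes (*Rasd2*). The sample labels name cortex as the tissue. The methods describe the upper quadrant of cryosections from Bregma +0.64 to -2.86 mm, holding cortex, striatum, dorsal hippocampus and thalamus. How much striatum a sample holds therefore depends on where the cuts fell. In such bulk samples, fewer striatal cells and less RNA per cell cannot be told apart.

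The members lie on 7 chromosomes of GRCm38.p6. The receptor genes are *Drd1* on chromosome 13 (54051183 to 54055658), *Drd2* on chromosome 9 (49340360 to 49408177) and *Adora2a* on chromosome 10 (75316877 to 75334792). *Ppp1r1b* (98348406 to 98357796) and *Rgs9* (109225348 to 109298181) are both on chromosome 11. *Pde10a* is on chromosome 17 (8525187 to 8986648), *Adcy5* on chromosome 16 (35154494 to 35305743) and *Rasd2* on chromosome 8 (75213944 to 75224113). RefSeq promoter windows of this build were matched for 6 of the 8 members. The 250 bases before an annotated RefSeq start are shown for *Drd1* and *Drd2*, which mark the separate populations yet varied together, and for *Rgs9*, the member with the most calls once other striatal genes were in the model. Capitals mark matches, on either strand, to 3 motifs. The GC box was searched as GGGCGG. The box bound by the TATA-binding protein was searched as TATAAA, and the site of the factor NF-Y as CCAAT. The letters TGACG (the half-site of a cAMP response element) were searched as well.
Drd1, chr13:54055659-54055908, minus strand: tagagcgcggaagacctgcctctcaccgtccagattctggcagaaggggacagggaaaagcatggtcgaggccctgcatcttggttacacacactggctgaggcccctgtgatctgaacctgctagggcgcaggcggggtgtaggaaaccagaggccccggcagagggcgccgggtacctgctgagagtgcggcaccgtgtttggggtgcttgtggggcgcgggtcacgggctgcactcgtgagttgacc
Drd2, chr9:49340153-49340402, plus strand: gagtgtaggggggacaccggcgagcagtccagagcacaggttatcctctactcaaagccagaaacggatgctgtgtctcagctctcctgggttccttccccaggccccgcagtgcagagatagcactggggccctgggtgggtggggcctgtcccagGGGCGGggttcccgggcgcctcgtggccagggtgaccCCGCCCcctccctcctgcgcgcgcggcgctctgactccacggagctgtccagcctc
Rgs9, chr11:109298182-109298431, minus strand: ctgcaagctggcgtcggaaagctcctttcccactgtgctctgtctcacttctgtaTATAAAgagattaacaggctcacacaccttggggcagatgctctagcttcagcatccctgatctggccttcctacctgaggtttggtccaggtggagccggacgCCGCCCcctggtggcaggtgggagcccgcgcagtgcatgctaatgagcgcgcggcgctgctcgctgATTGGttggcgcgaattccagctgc
In the *Drd2* window GGGCGG was found 2 times, starting 93 and 56 bases before the RefSeq start that this window ends at, which lies inside the longer gene span given above. The *Rgs9* window held TATAAA 195 bases, GGGCGG 91 bases and CCAAT 25 bases before the start, and the *Drd1* window shown held none of the searched letters. A further RefSeq start of *Drd1* has a window of its own, not shown, with 1 match to GGGCGG. Among 32851 RefSeq windows of this length, 32.7% held GGGCGG, 12.4% TATAAA, 33.8% CCAAT and 17.8% TGACG. The share of G and C was 64.0% for *Drd1*, 68.8% for *Drd2* and 59.6% for *Rgs9*.

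All members were well expressed in every mouse. Over the 24 libraries the mean level was 694 TPM for *Ppp1r1b*, at the 98.9th percentile of tested genes by TPM. It was 229 TPM for *Adcy5*, 225 TPM for *Rasd2*, 85.7 TPM for *Pde10a*, 74.2 TPM for *Adora2a*, 65.8 TPM for *Rgs9*, 61.0 TPM for *Drd2* and 49.7 TPM for *Drd1*. The highest mouse exceeded the lowest by 1.67 times (*Rasd2*) to 1.91 times (*Drd2*).

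*Drd1*, the receptor of the D1 population, was at 45.8, 45.9, 46.6 and 49.0 TPM in sham mice and at 39.9, 41.5, 50.5, 60.6 and 62.1 TPM in vehicle mice. With PLX3397 it was at 35.3, 47.8, 51.5, 53.4 and 57.2 TPM, with Anakinra at 41.4, 43.1, 43.6, 46.6 and 52.0 TPM and with PLX3397+Anakinra at 49.4, 54.5, 54.9, 56.4 and 64.4 TPM. Sham mice were close together, and the vehicle mice lay on both sides of them. The means were 46.8 ± 1.53 TPM (SD, n = 4) in sham and 50.9 ± 10.4 TPM (SD, n = 5) in vehicle mice. All 5 mice with PLX3397+Anakinra were above the 4 sham mice, by a margin of less than 1 TPM. The share of all genes without overlap between these groups is not given here, so this separation has no background. That combination group still overlapped with each of the other TBI groups.

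*Drd2*, the receptor of the D2 population, was at 51.4, 57.4, 62.0 and 62.0 TPM in sham and at 44.9, 48.1, 60.8, 66.6 and 73.7 TPM in vehicle mice. It was at 41.6, 61.5, 62.9, 65.9 and 66.3 TPM with PLX3397, at 47.4, 57.3, 58.6, 60.5 and 62.2 TPM with Anakinra and at 62.5, 65.7, 71.2, 74.0 and 79.4 TPM with PLX3397+Anakinra. The combination mice lay above all sham and all Anakinra mice, and 2 of them were above the highest vehicle mouse. For these separations too, the share of all genes is not given here. Group means were 58.2 ± 5.01 TPM (SD, n = 4) in sham, 58.8 ± 12.2 TPM (SD, n = 5) in vehicle and 70.6 ± 6.66 TPM (SD, n = 5) in combination mice.

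*Adora2a*, expressed with *Drd2* in the same neurons, was at 64.8, 65.6, 69.0 and 79.5 TPM in sham and at 56.9, 57.9, 76.4, 83.3 and 84.3 TPM in vehicle mice. It was at 56.1, 79.2, 83.0, 85.1 and 86.0 TPM with PLX3397, at 52.2, 59.1, 69.5, 70.3 and 78.2 TPM with Anakinra and at 79.1, 79.3, 84.0, 88.2 and 93.6 TPM with the combination. Vehicle mice fell into 3 high and 2 low values. The lowest combination mouse was just above the highest Anakinra mouse, again with no share of all genes beside it. Means ranged from 65.8 ± 10.2 TPM (SD, n = 5) with Anakinra to 84.8 ± 6.18 TPM (SD, n = 5) with the combination.

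*Ppp1r1b*, the most abundant member by TPM, was at 613, 640.2, 664 and 761 TPM in sham and at 571, 574, 722, 735 and 773 TPM in vehicle mice. It was at 513, 727, 747, 753 and 755 TPM with PLX3397, at 596, 631, 645, 659 and 725 TPM with Anakinra and at 668, 708, 766, 800.3 and 916 TPM with the combination. With PLX3397, 4 mice were within 30 TPM of each other and 1 mouse was far below them. Means were 669.5 ± 64.7 TPM (SD, n = 4) in sham, 675 ± 95.7 TPM (SD, n = 5) in vehicle and 772 ± 95.8 TPM (SD, n = 5) in combination mice, and every pair of groups overlapped.

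*Rgs9* was at 54.3, 60.1, 62.1 and 66.9 TPM in sham and at 54.1, 57.7, 65.8, 78.1 and 86.9 TPM in vehicle mice. It was at 48.1, 66.0, 67.7, 68.3 and 69.6 TPM with PLX3397, at 52.9, 58.8, 64.0, 69.5 and 70.9 TPM with Anakinra and at 63.4, 70.3, 70.4, 70.8 and 82.5 TPM with the combination. Its sham mean of 60.9 ± 5.19 TPM (SD, n = 4) was the lowest of the 5 group means, which for the other 7 members was that of Anakinra. The vehicle mean was 68.5 ± 13.8 TPM (SD, n = 5).

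*Pde10a* was at 76.7, 84.6, 87.1 and 90.3 TPM in sham, 74.0, 75.4, 87.7, 99.7 and 105 TPM in vehicle and 62.3, 84.6, 88.2, 88.5 and 89.1 TPM in PLX3397 mice. It was at 69.0, 71.3, 72.4, 89.3 and 90.9 TPM with Anakinra and at 81.4, 92.5, 94.6, 97.5 and 104 TPM with the combination. The Anakinra mice formed 3 low and 2 high values, and all groups overlapped.

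*Adcy5* was at 209, 224, 235 and 271 TPM in sham, 178, 184, 221, 241 and 284 TPM in vehicle and 174, 217, 232, 251 and 252 TPM in PLX3397 mice. It was at 164, 201, 211, 240.2 and 245 TPM with Anakinra and at 202, 224, 261, 282 and 293 TPM with the combination. *Rasd2* was at 212, 222, 224 and 256 TPM in sham, 183, 185, 219.7, 227 and 271 TPM in vehicle and 173, 203, 231, 247 and 249 TPM in PLX3397 mice. With Anakinra *Rasd2* was at 169, 209, 222, 226 and 237 TPM and with the combination at 194, 238, 257, 263 and 283 TPM. Both genes were placed alike in the mice, and no pair of groups was free of overlap.

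**Figure D1:**
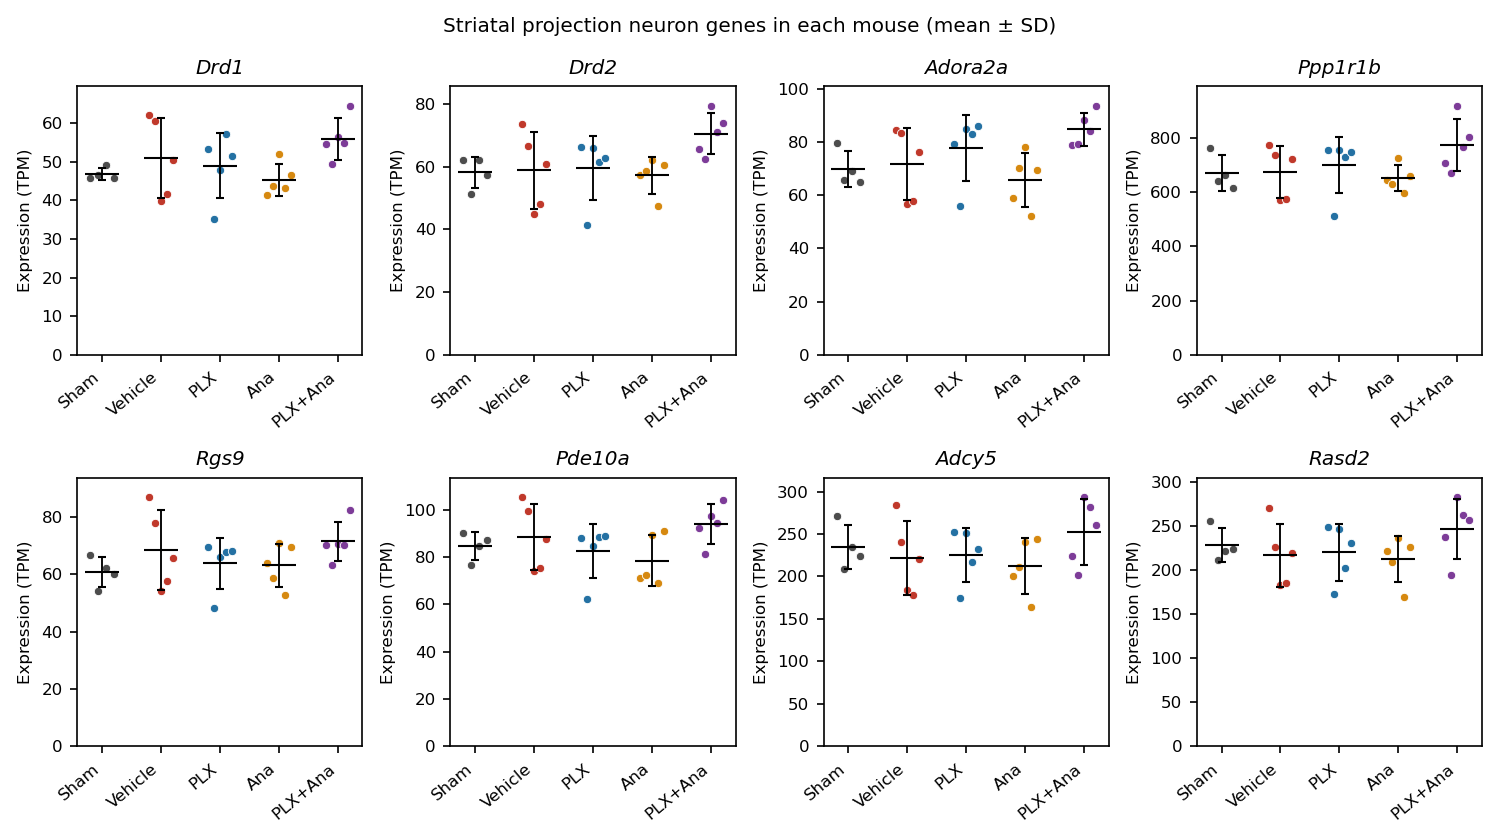
Expression in TPM (vertical axes, from 0) of the 8 members in each group, with 1 point per mouse and black bars for the mean ± SD (n = 5, sham n = 4; PLX is PLX3397, Ana is Anakinra). Vehicle mice spread widely, 1 PLX3397 mouse is low in all panels, and the combination has the highest mean in all 8.

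The order of the group means was alike for most members. PLX3397+Anakinra had the highest mean in 8 of 8 and Anakinra the lowest in 7 of 8, but the members vary together, so these are not separate observations. The highest group mean exceeded the lowest by 1.16 times (*Rasd2*) to 1.29 times (*Adora2a*). Within a single group the highest mouse exceeded the lowest by up to 1.43 times (*Pde10a*, PLX3397) to 1.64 times (*Drd2*, vehicle), and this was larger than the range of the group means for all 8 members. Neighbouring groups in that order were not called different for any member.

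Injury together with its craniotomy, compared as vehicle versus sham, was not accompanied by a called difference in any member. A gene was called when limma's p, after Benjamini-Hochberg adjustment over all 17267 genes tested, was below 0.05. By this rule 0 of 8 members were called (limma, 0 of 8 at an unadjusted p below 0.05 too), against 54.3% of all tested genes. Their log2 fold changes on the log2(TPM + 1) scale ran from -0.10 (*Adcy5*) to 0.15 (*Rgs9*), with standard errors of 0.11 to 0.14. The median was 0.01, and over all tested genes it was -0.01. For *Ppp1r1b* the fold was 1.00 with a 95% confidence interval of 0.86 to 1.18. Over the 8 members the lowest bound was 0.77 (*Adcy5*) and the highest 1.32 (*Rgs9*). For each member, a difference within its own interval is not excluded.

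Genes shared by all neurons, those of the striatum included, and genes of other parts of the quadrant differed between the same mice. Of all 17267 genes, 4600 rose and 4778 fell in this comparison. Of 12 pan-neuronal genes, 12 fell in vehicle versus sham, with a median log2 fold change of -0.58. The neurofilament genes *Nefl* (591 to 348 TPM, adjusted p = 1.2e-10) and *Nefm* (336 to 204 TPM, adjusted p = 3.6e-10) had the smallest adjusted p among them in limma. Of 20 genes of cortical layers, 14 fell and 0 rose (median -0.60), among them *Lamp5* (199 to 91.4 TPM). Of 16 thalamic genes, 9 fell and 0 rose (median -0.36), including *Ramp3* (73.1 to 44.6 TPM) and *Adarb1* (113 to 78.4 TPM). Of 15 genes of the dorsal hippocampus, 8 fell and 1 rose (median -0.31). Here *Plk5* fell (19.1 to 12.6 TPM), and *Zbtb20*, the gene that rose (11.8 to 19.6 TPM), is also made in astrocytes.

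Of a further 30 genes known from striatal projection neurons, 2 rose and 3 fell in vehicle versus sham, 25 were not called, and their median was -0.06. The smallest adjusted p belonged to *Ptpn7* (1.68 to 3.81 TPM) and *Serpina9* (9.75 to 14.9 TPM), both of which rose. The genes that fell, named after their values were seen, were *Foxp1*, a transcription factor (30.3 to 25.2 TPM), *Chrm4*, a muscarinic receptor (30.8 to 24.7 TPM), and *Scn4b* (330.0 to 274 TPM). *Ptpn7* encodes a phosphatase that is also known from blood cells, and it moved with PLX3397+Anakinra the other way (3.81 to 2.61 TPM against vehicle, adjusted p = 0.0029 in limma). The counts of different lists were not compared by a test.

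None of the members was called in the other comparisons with sham. In PLX3397 versus sham 45.2% of all genes were called and 0 of 8 members (limma, 0 at unadjusted p). In Anakinra versus sham it was 54.4% of all genes and 0 of 8 members (limma, 0 at unadjusted p). In PLX3397+Anakinra versus sham it was 38.8% of all genes and 0 of 8 members by limma, with 2 members, *Drd2* and *Adora2a*, at an unadjusted p below 0.05. That unadjusted threshold was passed by 8067 of all 17267 genes in limma. In this last comparison all 8 log2 fold changes were above 0, from 0.10 to 0.28, and the smallest adjusted p was 0.09 (*Adora2a*, log2 fold change 0.28, standard error 0.13). When only the 9 mice of those groups entered the model, *Drd1*, *Drd2*, *Adora2a* and *Rgs9* passed in limma (adjusted p from 0.005 to 0.025). Their standard errors were 0.06 to 0.07 in place of 0.12 to 0.13. The share of all genes called in that fit is not given here, so this count has no background.

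Drug treatment was compared with vehicle. With PLX3397, 0 of 8 members were called against 9.89% of all genes (limma, 0 members at unadjusted p), and log2 fold changes ran from -0.10 (*Pde10a*) to 0.12 (*Adora2a*). With Anakinra, 0 of 8 were called against 0.116% of all genes (limma, 0 members at unadjusted p), and all 8 values were below 0, from -0.16 (*Pde10a*) to -0.02 (*Drd2*). With PLX3397+Anakinra, 0 of 8 were called by limma against 17.5% of all genes, and all 8 values were above 0, from 0.08 (*Rgs9*) to 0.28 (*Drd2*). *Drd2* (unadjusted p = 0.033, adjusted p = 0.127) and *Adora2a* (unadjusted p = 0.047, adjusted p = 0.161) had the smallest p by limma. An unadjusted p below 0.05 in limma was found for these 2 members and for 5135 of all 17267 genes. The 95% intervals of the combination against vehicle reached folds of 0.90 to 1.45. These comparisons share the same 5 vehicle mice.

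The combination was also compared with each single drug. Against PLX3397, 0 of 8 members were called by limma (1 at unadjusted p, *Drd2*), against 0.151% of all genes. Of all 17267 genes, 1159 had an unadjusted p below 0.05 there in limma. Against Anakinra, an unadjusted p below 0.05 in limma was reached by 5 of 8 members and by 4816 of all 17267 genes. After adjustment 1 of 8 was called by limma, against 12.8% of all genes. This was *Adora2a*, higher with the combination with a difference of 0.37 in log2 (SE 0.12, adjusted p = 0.0456 in limma). For it, 5 of 5 combination mice were above all 5 Anakinra mice, and the share of all genes that separate so is not given here. The other 7 members were also higher with the combination than with Anakinra, by 0.18 (*Rgs9*) to 0.30 (*Drd2*), at adjusted p from 0.091 to 0.321 in limma. The call of *Adora2a* was lost in 10 of 24 models that each left out 1 mouse, with adjusted p between 0.021 and 0.145 over the 24. It was also lost with median-ratio scaling, with no expression filter and with no variance trend, at differences of 0.34 to 0.37 and adjusted p of 0.062 to 0.086 in limma. With the other striatal genes as a covariate the difference was 0.09 and adjusted p was 0.413. With only the compared groups in the model it was called at adjusted p = 0.0148 in limma, and *Drd1* and *Drd2* were called too. The share of all genes called in that model is not given here. PLX3397 versus Anakinra called 0 of 8 members (limma, 0 at unadjusted p) and 6.69% of all genes.

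The interaction is the log2 change with both drugs minus the sum of the changes with each drug alone. It was called for 0 of 8 members and for 0% of all genes by limma. Before adjustment limma gave a p below 0.05 for *Pde10a* (0.36, SE 0.15, adjusted p = 0.557) and *Drd1* (0.35, SE 0.16, adjusted p = 0.599). It gave such a p for 1395 of all 17267 genes. The interaction was above 0 for all 8 members. An F-test over the 5 groups called 0 of 8 members by limma (0 at unadjusted p) and 51.9% of all genes, with *Adora2a* nearest to the threshold (adjusted p = 0.0895).

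The spread between mice of the same group was large for genes of this level. The residual SD of the members about their group means was 0.18 (*Ppp1r1b*) to 0.23 (*Adcy5*) on the log2 scale. It lay between the 75.8th and 85.8th percentile of all tested genes. Among 8094 genes that averaged 20 TPM or more, whose median residual SD was 0.09, it lay between the 95.5th and 97.9th percentile. The coefficient of variation over the members had a median of 8.57% in sham and 9.68% in combination mice, and reached 12.1% with Anakinra, 14.8% with PLX3397 and 19.2% with vehicle. Sham mice were the least spread and vehicle mice the most, a difference that was not tested.

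This spread was shared by the members. The residuals of the 28 pairs of members had Pearson r of 0.68 to 0.96 (median 0.88) over 24 libraries, and one component held 88.6% of their variance. The closest pair was *Adcy5* and *Rasd2* (0.96), followed by *Rgs9* and *Pde10a* (0.95). *Drd1* and *Drd2*, from separate populations of neurons, had r of 0.86, and *Drd2* and *Adora2a*, from the same population, 0.92. The least alike were *Drd1* and *Rasd2* (0.68). These values describe the same libraries, whose TPM share one total, and carry no test.

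Single mice were therefore high or low in the members as a set. In 14 of 24 mice all 8 members were on one side of their group means, above in 7 and below in 7. PLX3397 mouse J02 was at 69.7% to 78.4% of its group means, and vehicle mice J18B and J19B were at 76.3% to 85.4%. Vehicle mouse J01B was at 115% to 128% and J17B at 104% to 119%. Anakinra mouse J21 was at 77.2% to 95.1%, and combination mouse J04 at 78.6% to 93.5%. Among sham mice J08 was the lowest, at 88.4% to 99.5%.

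The other 30 striatal genes moved with the members from mouse to mouse. Their score, the mean of the scaled deviations from group means, had r of 0.985 with the score of the members (Spearman's rho 0.972, and r of 0.979 without the 2 mice farthest from the median, n = 24). By the rule used to name genes, the genes most like the members among 12515 genes of at least 5 TPM included *Gng7* (r = 0.972), *Pde1b* (0.970), *Scn4b* (0.956) and *Gnal* (0.955). *Gnal* and *Gng7* encode subunits of the G protein Golf, *Pde1b* a calcium-dependent phosphodiesterase and *Scn4b* a sodium channel subunit. These 4 are on the striatal list. The median r over the 12515 genes was 0.12, and 196 genes exceeded 0.8, among them 21 of the 29 striatal genes at that level. The 3 genes with the lowest r were *Rps4x* (-0.845), *Rpl22* (-0.836) and *Tpt1* (-0.832), a pair of ribosomal protein genes and the translationally controlled tumor protein.

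**Figure D2:**
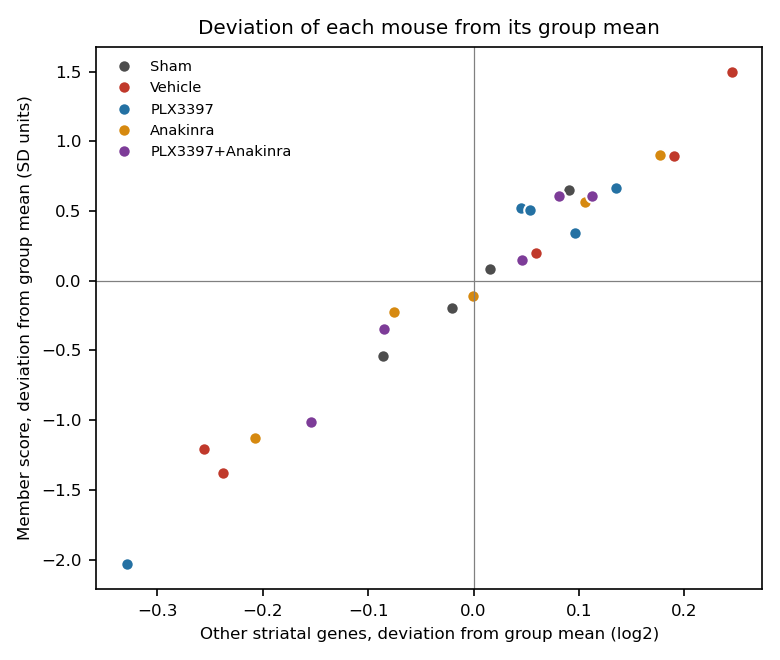
Deviation of each of the 24 mice from its group mean, as the log2 mean of 30 other striatal genes (horizontal) and as the score of the 8 members (vertical, mean over members in SD units), coloured by group. The points follow one line through all 5 groups, from PLX3397 mouse J02 at the lower left to vehicle mouse J01B at the upper right (Pearson r = 0.985 between the scaled scores).

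Lists of other cells and regions moved with the members to different degrees. For GABA neurons r was 0.910, for the cAMP pathway 0.899 and for striatal cholinergic and other interneurons 0.788. For pan-neuronal genes it was 0.708 and for cortical layers 0.671. For the thalamus it was 0.379, and for 5 tested genes of midbrain dopamine neurons 0.372. Of that midbrain list, *Th* is also on the interneuron list and *Nr4a2* on the cortical list. Negative values were found for microglia and macrophages (-0.767), choroid plexus (-0.549), astrocytes (-0.494), dorsal hippocampus (-0.375), red blood cells (-0.370), oligodendrocytes (-0.225) and endothelium (-0.202). Without the 2 mice farthest from the median, the hippocampal value was -0.171 and that of microglia -0.643. Among single members, r with the microglial score ran from -0.661 (*Rgs9*) to -0.818 (*Ppp1r1b*). The part of dissection, lesion size or cell content in this shared spread was not tested.

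**Figure D3:**
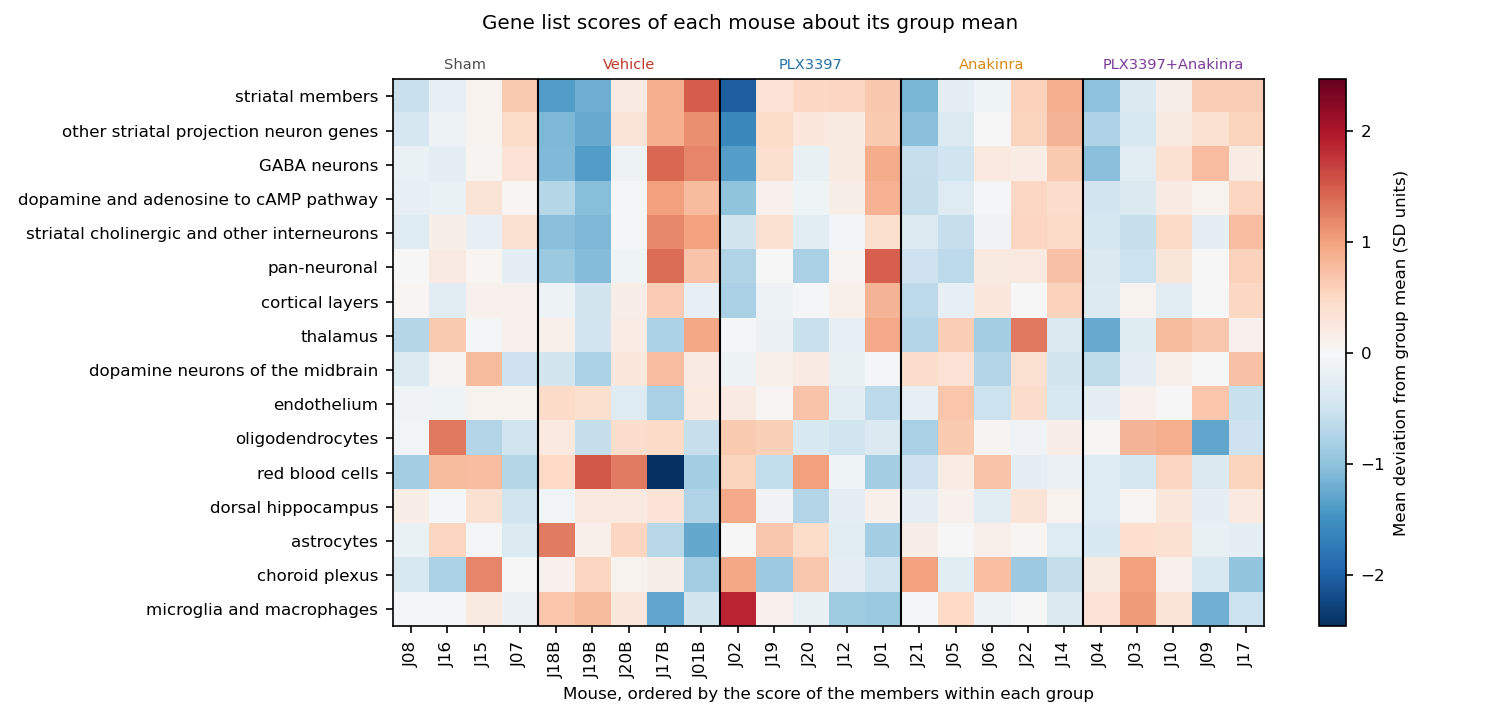
Scores of 16 gene lists (rows, the members on top) in 24 mice (columns, grouped by treatment and ordered by the score of the members). Colours give the mean deviation from the group mean in SD units, red above and blue below. Striatal and GABA neuron lists change colour together with the members, the microglial list opposite to them, the thalamic list follows the members less closely, and the hippocampal list runs weakly the other way.

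Microglial genes moved between the groups as well as between mice. Their summed level was 459.6 to 483 TPM in sham, 2431 to 3327 TPM in vehicle, 2680 to 3036 TPM in Anakinra, 1121 to 1708 TPM in PLX3397 and 985 to 1255 TPM in combination mice. Of the 12 genes, 12 rose in vehicle versus sham (median log2 fold change 1.89) and 12 fell in PLX3397+Anakinra versus vehicle (median -1.49), among them *Csf1r*, the target of PLX3397 (226 to 77.5 TPM). *Cd68* (15.9 to 287 TPM) and *C1qa* (108 to 1211 TPM) had the smallest adjusted p in vehicle versus sham. TPM of all genes share one total, and the part of this in the members' values was not tested. After median-ratio scaling the median of all genes moved by at most 0.03 on the log2 scale in any comparison of 2 groups.

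To compare the groups at a like level of other striatal genes, the mean log2 level of the 30 other striatal genes was added to the model as a covariate. Relative to the mean of all mice this level was highest with the combination, at 0.13 ± 0.11 (SD, n = 5). It was -0.00 ± 0.07 (SD, n = 4) in sham and -0.03 ± 0.24 (SD, n = 5) in vehicle mice. The single-drug groups were at -0.01 ± 0.19 (PLX3397, SD, n = 5) and -0.10 ± 0.15 (Anakinra, SD, n = 5). With it the residual SD of the members was 0.06 to 0.10, and 8.81% (*Drd2*) to 23.7% (*Rasd2*) of their variance within groups was left. The median standard error of a log2 fold change between 2 groups fell from 0.12 to 0.05. The covariate is not free of the groups, since 2 of its 30 genes rose and 3 fell in vehicle versus sham. A difference shared by the members and these genes is taken up by it. Shifts of its own genes enter the values of the members in this model.

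In this model *Rgs9* was higher in vehicle than in sham mice, with a difference of 0.18 in log2 (SE 0.05, adjusted p = 0.0023 in limma). It was higher with Anakinra than in sham mice too, by 0.16 (standard error 0.05, adjusted p = 0.0072 in limma). Both calls were kept in 24 of 24 models that each left out 1 mouse (adjusted p up to 0.013 and 0.035). The log2(TPM + 1) of *Rgs9* minus the covariate of the same mouse was 5.95 ± 0.05 in sham mice (SD, n = 4). It was 6.12 ± 0.09 in vehicle mice (SD, n = 5) and 6.09 ± 0.07 in Anakinra mice (SD, n = 5). The covariate is centred on the mean of all mice, so these values are not ratios to the other striatal genes. In this model 1 of 8 members was called in vehicle versus sham, against 55.5% of all genes, and 1 of 8 in Anakinra versus sham, against 52.4% of all genes.

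*Adora2a* was higher with PLX3397 than in sham mice in the same model, by 0.15 (standard error 0.05, adjusted p = 0.0102 in limma), as the single member called against 47.2% of all genes. This call was kept in 24 of 24 models with 1 mouse left out, with adjusted p up to 0.047. *Pde10a* was lower with PLX3397 than with vehicle, by -0.12 (standard error 0.04, adjusted p = 0.0484 in limma), against 12.5% of all genes called. That call was kept in 6 of the 24 models only. The F-test with the covariate called *Rgs9* (adjusted p = 0.0142) and *Adora2a* (adjusted p = 0.0415) in limma, against 52.7% of all genes. Without sham mouse J08, *Rgs9* was at adjusted p = 0.052, and *Adora2a* was called in 9 of 24 such models. No member was called with the covariate in PLX3397+Anakinra versus Anakinra, where the log2 fold change of *Adora2a* was 0.09 (standard error 0.05, unadjusted p = 0.085), and other members lay between -0.08 and 0.04 by limma.

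**Figure D4:**
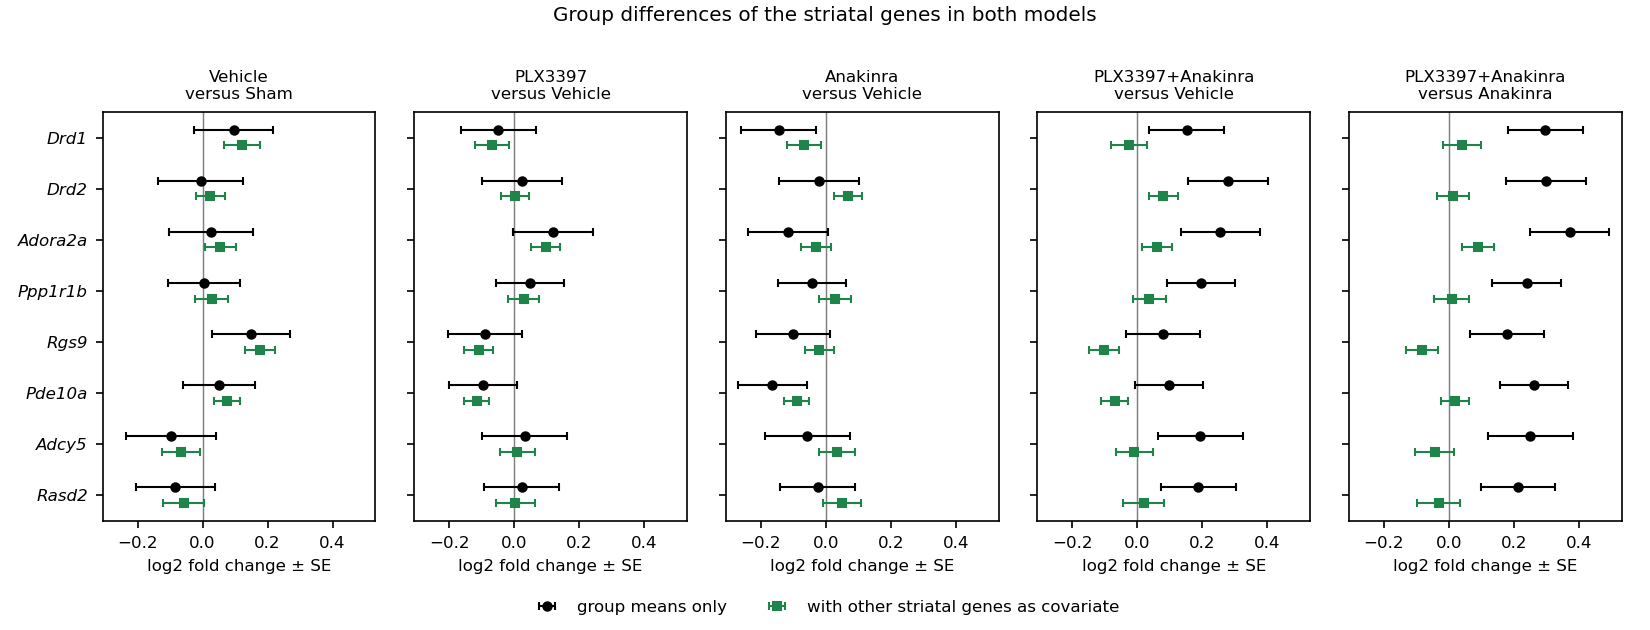
Log2 fold change (horizontal, log2(TPM + 1) scale, bars are ± 1 standard error) of the 8 members in 5 comparisons, from the model with group means only (black circles) and with the 30 other striatal genes as covariate (green squares). With the covariate the bars are shorter, the values of the combination lie nearer to 0 except for *Rgs9* against vehicle, and *Rgs9* in vehicle versus sham stands clear of 0 at 0.18.

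Ratios within a library were taken as a description. The ratio of *Rgs9* to *Adcy5* in TPM was 0.247 to 0.269 in the sham mice and 0.293 to 0.325 in the vehicle mice, without overlap. It was 0.279 to 0.323 with Anakinra, 0.263 to 0.312 with PLX3397 and 0.241 to 0.316 with the combination, and the last pair overlapped with sham. This ratio was chosen after its values were seen, and it pairs the members with the highest and the lowest log2 fold change in vehicle versus sham, so it restates that difference. The ratio of *Drd1* to *Drd2*, the receptors of the separate populations, had medians of 0.795 in sham, 0.864 in vehicle, 0.819 in PLX3397, 0.769 in Anakinra and 0.790 in combination mice, and all groups overlapped. The ratio of *Drd2* to *Adora2a*, from the same neurons, had medians of 0.835, 0.799, 0.741, 0.871 and 0.832 in that order of groups.

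The signalling genes around the members include many that are used by all neurons. Of 59 tested genes that lead from dopamine and adenosine receptors to cAMP and its targets, 4 rose and 34 fell in vehicle versus sham (median log2 fold change -0.24, all genes -0.01), where 54.3% of all genes were called. Among the 7 other adenylyl cyclases, 6 fell, led by *Adcy1*, a calcium-stimulated cyclase of forebrain neurons (329.8 to 176 TPM, log2 fold change -0.91, adjusted p = 1.2e-10 in limma). *Adcy7*, known from immune cells, rose (3.59 to 11.5 TPM, log2 fold change 1.43, adjusted p = 1.7e-11 in limma). *Adcy5* itself was not called (log2 fold change -0.10, standard error 0.14).

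Of 6 subunits of protein kinase A, 5 fell, and of 9 phosphodiesterases other than *Pde10a* 5 fell. Of 9 G protein subunits, 4 fell and 2 rose, and of 4 genes of RGS proteins and their partner, 3 fell. Of 6 phosphatase subunits 3 fell, and 0 genes rose among the phosphatase subunits, kinase subunits and phosphodiesterases. The pathway and striatal lists share 6 genes, which are 10% of the 60 pathway genes and 20% of the 30 striatal genes. *Gnal* (-0.03), *Gng7* (-0.09), *Pde7b* (0.01), *Pde1b* (-0.16) and *Arpp21* (-0.21), which are among them, were uncalled in log2 fold change in vehicle versus sham.

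In PLX3397+Anakinra versus vehicle, 12 of the 59 pathway genes rose and 2 fell (median 0.11, all genes 0.01). Of all 17267 genes, 1360 rose and 1658 fell in this comparison, 17.5% in all. The genes that fell were *Adcy7* (11.5 to 5.56 TPM, adjusted p = 1e-07 in limma) and *Gnai2*, a widely expressed inhibitory G protein subunit (365 to 298 TPM, adjusted p = 0.00084 in limma). Of the 7 adenylyl cyclases, 4 rose and 1 fell. In the same comparison 8 of 12 pan-neuronal, 8 of 20 cortical and 7 of 16 thalamic genes rose and 0 fell. Of the 30 other striatal genes 1 rose (*Gpr6*, a receptor of D2 neurons, 23.9 to 31.0 TPM) and 1 fell (*Ptpn7*). The median log2 fold changes lay closer together than these counts. They were 0.21 for pan-neuronal, 0.19 for cortical, 0.26 for thalamic and 0.19 for other striatal genes, and 0.19 for the members. Within the cortical list *Slc30a3* rose (62.5 to 80.6 TPM), and the smallest adjusted p within the thalamic list belonged to *Rgs16* (36.1 to 49.2 TPM) and *Ramp3* (44.6 to 62.2 TPM).

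The remaining lists were counted in vehicle versus sham too, where 4600 of all 17267 genes rose and 4778 fell. Their counts were not tested against these shares. Of 9 genes of striatal cholinergic and other interneurons 3 fell, *Pvalb* (176 to 127 TPM) and *Npy* (310 to 223 TPM) with the smallest adjusted p. Of 9 GABA neuron genes 3 fell, among them *Gad1* (267 to 207 TPM). In which region of the quadrant these interneuron and GABA neuron genes fell was not tested. Of 5 tested genes of midbrain dopamine neurons 1 rose and 1 fell. Of 9 astrocyte genes 8 rose, of 8 oligodendrocyte genes 5, of 8 endothelial genes 5 and of 8 choroid plexus genes 2, with 0 that fell. Of 5 genes of red blood cells 0 were called by limma. In PLX3397+Anakinra versus vehicle all 5 red blood cell genes fell, 1 interneuron gene rose (*Sst*), 1 hippocampal gene rose and 2 fell, and 1 astrocyte gene rose and 1 fell. By limma, 0 genes were called among the GABA neuron, midbrain dopamine, oligodendrocyte, endothelial and choroid plexus lists in that comparison.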

How the data were processed

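RNA was sequenced from 24 mice in 5 groups, taken from the sample labels. Reads were mapped to mm10 (GRCm38) in CLC Genomics Workbench by the authors, who deposited TPM per gene and library. The methods add that the software names the unit CPM, but low values of a library shared no common step, so they are scaled by length. Another deposited table holds the TPM rounded to 3 decimals. A filtered table with the authors' p-values was not used. log2(TPM + 1) was computed for the 17267 genes averaging 0.5 TPM or more and fitted in limma 3.58.1 (R 4.3.3) with 1 mean per group, all 24 libraries and a variance trend. p-values are two-sided and were adjusted over all genes tested (Benjamini-Hochberg, threshold 0.05). The code was tested on simulated data. The members and gene lists were chosen with earlier results of these data known. Named genes were the 8 members, the 5 highest and 3 lowest by correlation with the members' score among genes of at least 5 TPM, and the 2 called genes with the smallest adjusted p of lists in vehicle or combination comparisons, given for the lists described most closely. Some genes that this rule names are not reported here. The lists held other striatal genes, the cAMP pathway, interneurons, midbrain dopamine neurons, thalamus, hippocampus, cortical layers, pan-neuronal and GABA neuron genes, microglia, astrocytes, oligodendrocytes, endothelium, choroid plexus and red blood cells. The alternatives tried were median-ratio scaling, fits on only the compared groups, no variance trend, the rounded table, 30 other striatal genes as covariate, leaving out each mouse, a smaller pseudocount (0.1), and a filter that was absent (TPM above 0) or stricter (5 TPM). Leaving out each mouse with the covariate was added after seeing the data. The depth is unknown. The labels name the strain C57BL6N, which differs from the strain in the methods.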

Additional observations from a re-analysis of the deposited data

Results flagged for a closer look

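Of the 40 sets of values, 1 for each member and group, 5 held a mouse far from the others by Dixon's test at the 95% level, where chance flags about 1 in 20. All 5 concern PLX3397 mouse J02, which was the lowest of its group. Its level was 41.6 TPM for *Drd2*, 56.1 TPM for *Adora2a*, 513 TPM for *Ppp1r1b*, 48.1 TPM for *Rgs9* and 62.3 TPM for *Pde10a*. The members share their spread, so these are not 5 separate observations. No interaction of the drugs was called for any member by limma (2 members and 1395 of all 17267 genes at unadjusted p). Without mouse J02, *Adora2a* was called in the F-test over 5 groups, and *Drd1* was called beside *Adora2a* in PLX3397+Anakinra versus Anakinra.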

How the results depend on the processing

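Counts of called members were recomputed in 95 cases with another setting, and 84 kept the count, and in 288 cases with 1 mouse left out, of which 274 kept it. With the other striatal genes as covariate the count was 1 in place of 0 in vehicle versus sham, PLX3397 versus sham, Anakinra versus sham and PLX3397 versus vehicle, 2 in place of 0 in the F-test, and 0 in place of 1 in PLX3397+Anakinra versus Anakinra. With only the compared groups, for which no share of all genes is given, it was 4 in PLX3397+Anakinra versus sham and 3 in PLX3397+Anakinra versus Anakinra. The latter was 0 with no filter beyond TPM above 0, with median-ratio scaling and with no variance trend, and the cause was not tested.

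With each mouse left out, counts ranged from 0 to 2 in PLX3397+Anakinra versus Anakinra. It was 2 without PLX3397 mouse J02, and 0 without vehicle mouse J20B, Anakinra mice J05, J06 and J21, combination mice J09, J10 and J17 or sham mice J08, J15 and J16. Counts ranged from 0 to 1 in PLX3397+Anakinra versus vehicle, where *Drd2* was called without vehicle mouse J01B, and from 0 to 1 in the F-test, where *Adora2a* was called without PLX3397 mouse J02 or Anakinra mouse J14. Other counts stayed at 0. The share of all genes called in the models with 1 mouse left out is not given here, so these counts have no background.

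Of 2816 log2 fold changes of single members, no called value changed sign, 14 lost and 12 gained a call, and 99 that were called in neither case changed sign. Leaving out each mouse with the covariate in the model was chosen after seeing the data. No animal number, as written in the labels, occurs in more than 1 group. Without their letter B, 3 vehicle numbers recur with PLX3397 and 1 with PLX3397+Anakinra. They were taken as different mice, and no fit with the number as a block was made. The unknown depth limits what can be said of counting error.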
